A study of Mus musculus with 6 samples.

Results

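The genes described here encode the machinery that cuts cellular proteins into peptides and loads them on MHC class I molecules. They are the immunoproteasome subunits *Psmb8*, *Psmb9* and *Psmb10*, the proteasome activator genes *Psme1* and *Psme2*, the peptide transporter genes *Tap1* and *Tap2*, the loading factor gene *Tapbp*, the trimming aminopeptidase gene *Erap1* and the transcriptional regulator gene *Nlrc5*. They were chosen by name, as the rows of the deposited expression table that carry these 10 symbols, out of 55426 genes. The abdominal aorta of male C57BL/6J mice was compared between 3 Prdm16SMKO mice and 3 control mice, with 1 RNA library per mouse. Prdm16SMKO mice had floxed *Prdm16* alleles and *Myh11*-CreERT2, a tamoxifen-inducible Cre recombinase that the smooth muscle myosin promoter drives, carried on the Y chromosome. The study describes the control mice as wild type for *Prdm16* and carrying *Myh11*-CreERT2, so Cre was shared by both groups. Tamoxifen was given by gavage at 75 mg/kg/day for 5 days to mice aged 8 to 10 weeks, and RNA was taken 2 weeks later, from aortas with no aneurysm induced. *Myh11*-CreERT2 is active in smooth muscle of other organs as well, and the aorta also holds endothelial cells, fibroblasts and immune cells, so the values below are those of the whole tissue.

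Most cells break down proteins with the 20S proteasome, whose catalytic sites are formed by the constitutive subunits PSMB5, PSMB6 and PSMB7. Interferons and other inflammatory signals induce PSMB8, PSMB9 and PSMB10, which take the places of these subunits in newly assembled particles and change which peptides are cut, while immune cells carry much of this immunoproteasome without stimulation. The TAP transporter then moves peptides into the endoplasmic reticulum, where ERAP1 trims them and tapasin, the product of *Tapbp*, helps fit them to class I molecules.

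Levels are given as TPM (transcripts per 1000000), a unit that divides a gene's reads by its transcript length and gives each library an equal sum, so that levels of different genes can be compared. Fold changes are differences of log2(TPM + 0.5) between Prdm16SMKO and control mice, a scale on which weakly expressed genes appear to change less than they do. A gene was called changed at a Benjamini-Hochberg adjusted p under 0.05 in limma, over the 15775 genes that averaged 0.5 TPM or more, and all 10 genes described here passed that minimum. The targeted gene, *Prdm16*, was at 33.4, 36.8 and 30.8 TPM in the control libraries and at 20.8, 27.7 and 14.8 TPM in the Prdm16SMKO libraries. It was lower in every Prdm16SMKO library than in any control library, but was not called (log2 fold change −0.70, standard error 0.23, limma adjusted p = 0.376). Its TPM pools all exons and all cells of the aorta. In bulk tissue, fewer cells of a type and less RNA per cell cannot be told apart. The smooth muscle markers *Myh11*, *Acta2*, *Tagln*, *Cnn1* and *Smtn* summed to between 14505 and 24674 TPM in control and between 11119 and 17094 TPM in Prdm16SMKO libraries. All 5 had a log2 fold change below 0, with a median of −0.47, 2 of them with an unadjusted limma p under 0.05, and 0 were called. Each library had between 20332 and 22100 genes above 0 TPM. Of a library's TPM, 15.6% to 31.4% came from the 45S ribosomal RNA locus and 15.8% to 27.4% from mitochondrial transcripts, and both ranges overlapped between the groups.

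The promoter windows were searched for short motifs of interferon signalling and NF-Y binding. A RefSeq window of 300 bases, with 250 before and 50 after the transcription start, was at hand for 8 of the 10 genes, all but *Tap2* and *Nlrc5*. The motifs searched on both strands were GAAANNGAA, the core of the interferon-stimulated response element, TTCNNNGAA, the gamma-activated site, and CCAAT, the box bound by NF-Y. They occurred in 8.56%, 8.30% and 37.4% of the 32851 windows of the genome, and in 9.76%, 9.55% and 41.1% of the genes with a window. Of the 8 members with a window, 2, 1 and 3 held them. The stretches below are on the strand of the named gene, in GRCm38.p6, with the motif or its reverse complement in capitals.
*Psmb8*, gamma-activated site (chr17:34198088-34198116, + strand): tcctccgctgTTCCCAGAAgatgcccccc
*Psme1*, interferon-stimulated response element core (chr14:55578494-55578522, + strand): gagctgtgctTTCGCTTTCccttcccgct
*Erap1*, interferon-stimulated response element core (chr13:74639834-74639862, + strand): ccggtccaccTTCACTTTCactttcggtc
*Erap1*, interferon-stimulated response element core (chr13:74639840-74639868, + strand): caccttcactTTCACTTTCggtcccgggc
*Psmb9*, NF-Y box (chr17:34187324-34187348, − strand): gcagccgctgATTGGaaagccgagc
*Tap1*, NF-Y box (chr17:34187324-34187348, + strand): gctcggctttCCAATcagcggctgc
The *Psmb8* match began 97 bases before the transcription start (−97), the *Psme1* match lay just after it (+11), and the *Erap1* matches (−9 and −3) overlapped each other around it. *Psmb9* and *Tap1* are read in opposite directions from RefSeq starts with 225 bases between them, and the last pair of stretches is the same site read from each strand. *Tapbp* held CCAAT at 2 other sites, and the windows of *Psmb10* and *Psme2* held none of these motifs. A match is a description of the letters in these windows, not evidence of binding. A window without a match may still hold an element of other letters.

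The genes of the immunoproteasome and the transporter lie together. *Psmb9*, *Tap1*, *Psmb8* and *Tap2* follow each other within 34.3 kb of the MHC on chromosome 17 of GRCm38, from 34181987 to 34216321, and *Tapbp* is 253 kb away on the same chromosome. *Psme1* and *Psme2* are 5.91 kb apart on chromosome 14. *Psmb10* (chromosome 8, 105935735 to 105938444) and *Nlrc5* (chromosome 8, 94434356 to 94527272) share a chromosome, and *Erap1* is on chromosome 13.

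At baseline the members spanned a wide range. In control aortas the order by mean level was *Tapbp* (78.9 TPM), *Psme2* (55.1), *Psme1* (45), *Tap2* (15.3), *Erap1* (14.3), *Psmb8* (13.5), *Psmb10* (12.7), *Psmb9* (4.63), *Tap1* (4.48) and *Nlrc5* (1.87). Between neighbours in this order, the control ranges were separate only at *Tapbp* over *Psme2*, *Psme1* over *Tap2*, *Psmb10* over *Psmb9* and *Tap1* over *Nlrc5*. So the levels of *Tap2*, *Erap1*, *Psmb8* and *Psmb10* did not differ beyond their spread from one neighbour to the next. In Prdm16SMKO aortas *Psmb8*, with a mean of 29.0 TPM, came next after *Psme1*.

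**Figure D1:**
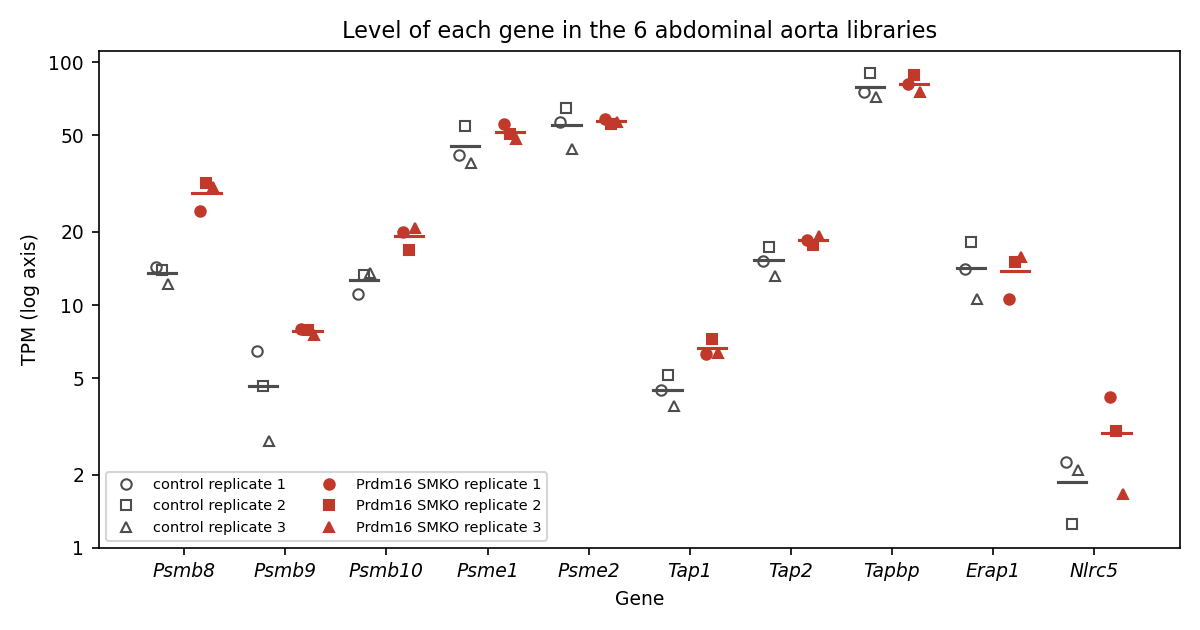
TPM (log axis) of the 10 genes in the 3 control libraries (open grey) and the 3 Prdm16SMKO libraries (filled red), with the replicate number as symbol and the group mean as a line. *Psmb8* lies between 12.2 and 14.4 TPM in control and between 24.5 and 31.9 TPM in Prdm16SMKO libraries, while the groups mix in *Psme1*, *Psme2*, *Tapbp*, *Erap1* and *Nlrc5*.

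The 3 catalytic subunits of the immunoproteasome were each higher in every Prdm16SMKO library than in any control library, and *Psmb8* was the only gene of the 10 that was called. *Psmb8* (ENSMUSG00000024338; β5i, the chymotrypsin-like subunit) measured 14.4, 13.9 and 12.2 TPM in the control libraries and 24.5, 31.9 and 30.6 TPM in the Prdm16SMKO libraries, each in the order of replicates 1, 2 and 3, as for all genes below. The lowest Prdm16SMKO library was well above the highest control. The means were 13.5 ± 1.14 and 29.0 ± 3.97 TPM (SD, n = 3 mice each), a 2.10-fold rise (log2 fold change 1.07 ± 0.17 SE, limma adjusted p = 0.0416). That is 1 of 10 genes called, where 0.355% of all tested genes were called in either direction and 0.184% were called higher. The call depended on which libraries were included. Without control replicate 1, 2 or 3 the limma adjusted p of *Psmb8* was 0.162, 0.120 or 0.122, without Prdm16SMKO replicate 2 or 3 it was 0.163 or 0.118, and only without Prdm16SMKO replicate 1 was it still under the threshold, at 0.0409. The log2 fold change itself stayed between 0.99 and 1.18 with a library left out.

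*Psmb9* (ENSMUSG00000096727; β1i, which takes the place of the caspase-like subunit) measured 6.49, 4.65 and 2.75 TPM in the control libraries and 7.93, 7.88 and 7.53 TPM in the Prdm16SMKO libraries. The Prdm16SMKO libraries were close together, and the control libraries were spread, with replicate 3 lowest. It was not called, at a log2 fold change of 0.76 ± 0.27 SE (limma adjusted p = 0.449). *Psmb10* (ENSMUSG00000031897; β2i, the trypsin-like subunit) was at 11.1, 13.3 and 13.6 TPM in control and at 20, 16.8 and 20.8 TPM in Prdm16SMKO libraries. The groups were apart here too, at a log2 fold change of 0.58 ± 0.16 SE (limma adjusted p = 0.293). When limma gave the noisier libraries less weight, *Psmb10* was called (limma adjusted p = 0.0259), while the log2 fold change of *Psmb9* dropped from 0.76 to 0.31 (limma adjusted p = 0.466). For each of the 3 subunits the exact two-sided permutation p was 0.1, the smallest that 3 libraries against 3 allow.

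The constitutive subunits gave no such separation. *Psmb5*, the gene of the subunit that PSMB8 replaces, was at 75.0, 86.6 and 63.5 TPM in control and at 82.7, 72.4 and 73.7 TPM in Prdm16SMKO libraries. *Psmb6*, the counterpart of *Psmb9*, was at 160 ± 19.2 and 154 ± 15.5 TPM, and *Psmb7*, the counterpart of *Psmb10*, at 62.2 ± 7.98 and 61.4 ± 6.39 TPM (SD, n = 3 each). The groups overlapped in all 3. Their log2 fold changes were 0.03, −0.05 and −0.01, with 95% confidence intervals from −0.33 to 0.40, from −0.41 to 0.30 and from −0.37 to 0.35. Leaving out a single library was enough to turn each of these signs.

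The ratio of an inducible subunit to the constitutive subunit it replaces is taken within a library, so the library's scaling cancels in the percentages below. *Psmb8* was at 19.2%, 16.0% and 19.2% of the TPM of *Psmb5* in control and at 29.6%, 44.1% and 41.5% in Prdm16SMKO libraries. *Psmb9* was at 4.08%, 2.59% and 1.95% of *Psmb6* in control and at 4.62%, 5.49% and 5.14% in Prdm16SMKO libraries. *Psmb10* was at 17.9%, 19% and 25.0% of *Psmb7* in control and at 29.1%, 29.0% and 36.3% in Prdm16SMKO libraries. All 3 ratios were higher in every Prdm16SMKO library, and in both groups the constitutive transcript was the more abundant. With 0.5 TPM added to both genes, the mean log2 ratio differed by 1.04 for *Psmb8*/*Psmb5*, 0.81 for *Psmb9*/*Psmb6* and 0.60 for *Psmb10*/*Psmb7*, which are 2.05-fold, 1.76-fold and 1.51-fold. With nothing added the differences were 1.06, 0.89 and 0.62. The exact two-sided permutation p was 0.1 for each, the smallest possible, and 0.1 after Benjamini-Hochberg adjustment over the 3 ratios. With 1 library left out, the differences ran from 0.93 to 1.21, from 0.60 to 1.07 and from 0.49 to 0.74. The proteins of each pair are related but distinct. Translated coding sequences of GENCODE M21 were identical at 65.3% of 248 aligned residues for PSMB8 and PSMB5, at 61.2% of 219 for PSMB9 and PSMB6 and at 57.1% of 273 for PSMB10 and PSMB7. The longest stretches their transcripts shared were 18, 11 and 15 bases, against a read length of 151 bp.

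**Figure D2:**
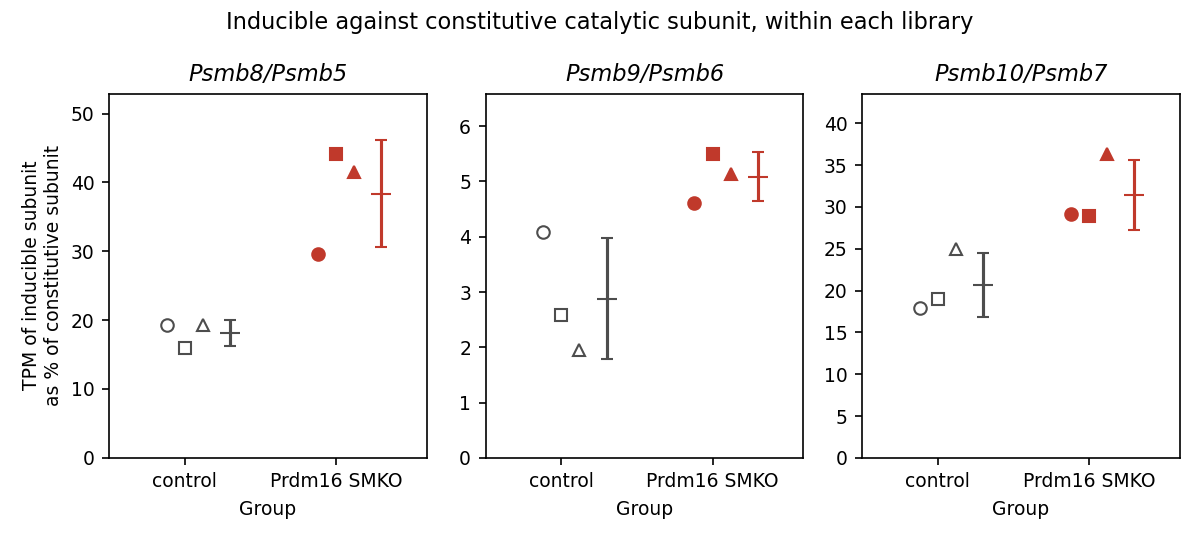
TPM of the inducible subunit as a percent of that of its constitutive counterpart, one panel per pair, for control (open grey) and Prdm16SMKO (filled red) libraries, with mean ± SD (n = 3) beside the points. In each panel all Prdm16SMKO libraries lie above all control libraries, most widely for *Psmb8*/*Psmb5*, at 29.6% to 44.1% against 16.0% to 19.2%.

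The PA28 activator, a cap that opens the 20S particle and is made of the products of *Psme1* (PA28α) and *Psme2* (PA28β), did not separate the groups. *Psme1* was at 41.6, 54.8 and 38.6 TPM in control and at 55.6, 50.7 and 48.2 TPM in Prdm16SMKO libraries, and *Psme2* at 56.7, 64.8 and 43.8 TPM and at 58.4, 55.9 and 56.9 TPM. Control replicate 2 was the highest control library in both genes and control replicate 3 the lowest, and the Prdm16SMKO libraries fell between or near them. The log2 fold changes were 0.21 (95% confidence interval −0.18 to 0.60) and 0.07 (−0.32 to 0.46). Neither gene was called (limma adjusted p = 0.862 and 0.974), the sign of *Psme2* turned without control replicate 3, and these intervals leave out a rise as large as the 1.07 fitted for *Psmb8*. *Psme1* stood at 73.4% to 88.0% of *Psme2* in control and at 84.7% to 95.1% in Prdm16SMKO libraries, so the subunits' ratio overlapped between the groups as well.

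Both transporter genes were higher in all Prdm16SMKO libraries, *Tap1* by more than *Tap2*. *Tap1* (ENSMUSG00000037321) was at 4.47, 5.14 and 3.84 TPM in control and at 6.30, 7.26 and 6.37 TPM in Prdm16SMKO libraries. *Tap2* (ENSMUSG00000024339), which forms the transporter with *Tap1*, was at 15.2, 17.4 and 13.2 TPM in control and at 18.5, 17.6 and 19.3 TPM in Prdm16SMKO libraries. The gap between the groups in *Tap2* was narrow, 17.4 against 17.6 TPM. Neither was called, *Tap1* with a log2 fold change of 0.53, an SE of 0.18 and a limma adjusted p of 0.437, and *Tap2* with 0.27, 0.16 and 0.746. *Tap1* stood at 29.4%, 29.5% and 29.0% of *Tap2* in control and at 34.1%, 41.2% and 33.0% in Prdm16SMKO libraries. The control libraries were close together in this ratio, and every Prdm16SMKO library was above them. No test of this ratio was made.

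The factors that act on peptides inside the endoplasmic reticulum showed no separation. *Tapbp*, the most abundant of the 10, was at 75.1, 90.0 and 71.8 TPM in control and at 81.0, 88.2 and 75.4 TPM in Prdm16SMKO libraries. *Erap1* was at 14.1, 18.1 and 10.6 TPM in control and at 10.6, 15.1 and 15.8 TPM in Prdm16SMKO libraries. The groups overlapped in both, with log2 fold changes of 0.05 (95% confidence interval −0.29 to 0.39) and −0.03 (−0.56 to 0.50), and both signs turned when single libraries were left out. *Nlrc5*, which encodes the transactivator of MHC class I, *B2m*, *Tap1* and *Psmb9* promoters, was the least abundant. It was at 2.26, 1.25 and 2.10 TPM in control and at 4.18, 3.04 and 1.66 TPM in Prdm16SMKO libraries. Replicates 1 and 2 of the Prdm16SMKO group were above every control and replicate 3 was not. Its log2 fold change of 0.50 had a standard error of 0.33 (limma adjusted p = 0.808), and ran from 0.25 to 0.81 with a library left out.

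**Figure D3:**
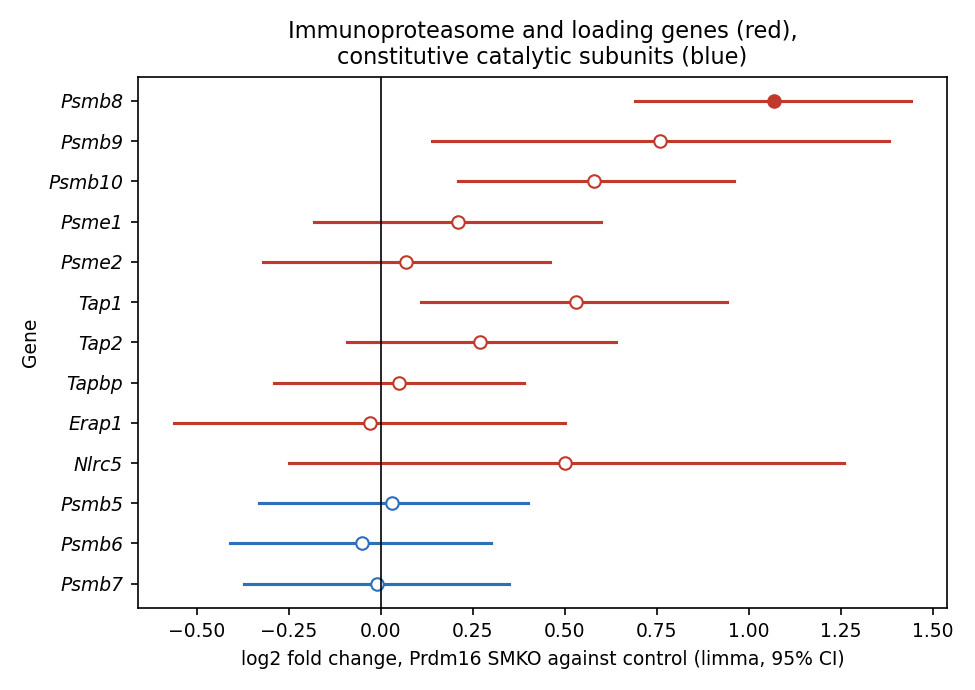
Log2 fold change between Prdm16SMKO and control mice, with the 95% confidence interval of limma, for the 10 genes (red) and the 3 constitutive catalytic subunits (blue), where the filled point is called and open points are not. The intervals of *Psmb8*, *Psmb9*, *Psmb10* and *Tap1* lie above 0, and all others include 0.

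Counted over the 10 genes, 9 had a log2 fold change above 0 and 1, *Erap1*, below 0, where 54.2% of all tested genes were above 0. The median was 0.39, against 0.02 over all tested genes. At an unadjusted limma p under 0.05 there were 4, *Psmb8*, *Psmb9*, *Psmb10* and *Tap1*, all higher, where 4.88% of tested genes were. The groups did not overlap in 5, those 4 and *Tap2*, all higher, where this held for 7.02% of tested genes. The genes were chosen with earlier results of these data in view, so no test of the list was made. The median lay between 0.26 and 0.44 over the 18 alternative settings, and at 0.26 without Prdm16SMKO replicate 1. The count of genes above 0 ran from 7, without control replicate 3, to 10.

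Among the libraries, the mean deviation of the 10 genes from their own average was −0.14, −0.07 and −0.39 log2 units in control replicates 1, 2 and 3 and 0.21, 0.24 and 0.16 in Prdm16SMKO replicates 1, 2 and 3. Control replicate 3 was thus the lowest, and it was the lowest control library in 8 of the 10 genes. The constitutive genes *Psmb5*, *Psmb6* and *Psmb7* were also lowest in it, at 63.5, 141 and 54.3 TPM, so the low values were not limited to the 10 genes. Control replicate 3 had the largest share of 45S ribosomal RNA, 31.4%. Prdm16SMKO replicate 2, with the highest mean deviation, had 29.9%. Without control replicate 3 the log2 fold changes of *Psmb8*, *Psmb9* and *Tap1* were 1, 0.46 and 0.43. The part of the ribosomal share in these values was not tested, and with TPM rescaled without the mitochondrial and 45S transcripts the median of the 10 genes was 0.42 and *Psmb8* was still called (limma adjusted p = 0.0375).

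**Figure D4:**
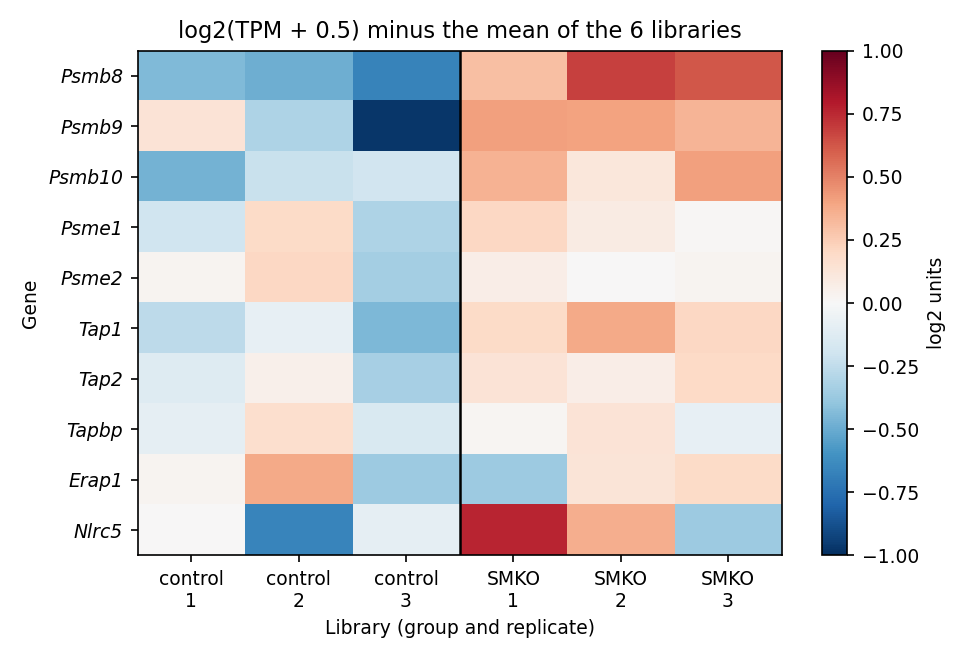
Deviation of log2(TPM + 0.5) from each gene's mean over the 6 libraries, with libraries as columns, genes as rows and colour from −1 (blue) to 1 (red) in log2 units. *Psmb8*, *Psmb10* and *Tap1* are blue in every control and red in every Prdm16SMKO column, and control replicate 3 is blue throughout.

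The other parts of the proteasome and the other trimming peptidases had log2 fold changes between −0.38 and 0.30. Of 11 other 20S core subunits 0 were called in limma, and 0 had an unadjusted p under 0.05. Their fold changes ran from −0.11 for *Psma7* to 0.06 for *Psmb1* on the log2 scale, with a median of 0.02 and 7 of 11 above 0. Of 18 subunits of the 19S regulator, which recognises ubiquitylated proteins, 0 were called and 0 had an unadjusted limma p under 0.05. They ran from −0.29 for *Psmd2* to 0.09 for *Psmd12*, with a median of −0.11 and 14 of 18 below 0. Among 8 other activators and assembly factors 0 were called and 0 passed at an unadjusted limma p of 0.05, and the fold changes ran from −0.38 for the assembly chaperone gene *Psmg4* to 0.30 for *Psme4*, which encodes the activator PA200. *Psme4* was at 15.4, 18.0 and 14.1 TPM in control and at 18.7, 19.1 and 20.6 TPM in Prdm16SMKO libraries, the 1 gene of these 3 lists in which the groups did not overlap (limma adjusted p = 0.699). Of all tested genes, 7.02% were higher with no overlap. Of 6 other antigen-trimming peptidases 0 were called and 0 had an unadjusted limma p under 0.05, from −0.22 for *Blmh*, a cytosolic cysteine peptidase, to 0.10 for *Lap3*, a leucine aminopeptidase.

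Of 7 other genes of class I loading and folding 1 was called, where 0.355% of all tested genes were. That gene was *H2-K1*, a classical class I heavy chain. It was at 182, 174 and 159 TPM in control and at 296, 365 and 319 TPM in Prdm16SMKO libraries, which is 0.92 ± 0.15 SE on the log2 scale (limma adjusted p = 0.0490). It lost the call with any 1 of the 6 libraries left out (limma adjusted p from 0.0777 to 0.190). The heavy chain gene *H2-D1*, from 151 ± 16.2 to 242 ± 40.4 TPM, and the light chain gene *B2m*, from 459 ± 33.7 to 607 ± 69.3 TPM (SD, n = 3 each), were named after their values were seen. In neither did the groups overlap, and neither was called (limma adjusted p = 0.225 and 0.489). So 3 of the 7 genes, *H2-K1*, *H2-D1* and *B2m*, were higher with no overlap, where this held for 7.02% of tested genes. The same 3 were higher with an unadjusted limma p under 0.05, where 4.88% of tested genes were. Because the heavy chain genes resemble each other closely, their reads could have been divided between them. *Calr*, a chaperone of the loading complex, had the lowest value of the list, −0.29 on the log2 scale, at 388, 538 and 383 TPM in control and at 387, 361 and 313 TPM in Prdm16SMKO libraries.

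Of 24 genes of interferon signalling and of class I transcription, 0 were called and 2 had an unadjusted limma p under 0.05, both higher, where 4.88% of all tested genes were. The median was 0.06, with 14 of 24 above 0. *Irf1*, an interferon-induced transcription factor that binds the promoters of *Tap1* and *Psmb9*, was named after its value was seen, at 13.0, 11.8 and 11.1 TPM in control and at 16.1, 17.5 and 15.9 TPM in Prdm16SMKO libraries (limma adjusted p = 0.421). It was higher in every Prdm16SMKO library than in any control library, as was *Ciita*, the class II transactivator gene. *Ciita* was at or under 1.16 TPM throughout and was also named after its value was seen. Of the 24 genes, 3 were higher with no overlap between the groups, where this held for 7.02% of all tested genes. *Rfxank*, a subunit of the RFX complex through which NLRC5 acts, had the lowest value, −0.43 (limma adjusted p = 0.661). The interferon genes *Ifng*, *Ifnb1*, *Ifna4*, *Ifnl2* and *Ifnl3* were listed at 0 in all 6 libraries.

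The summed pan-leukocyte and macrophage markers were higher in every Prdm16SMKO library than in any control library. For macrophages the gap was narrow, 112 against 113 TPM. The sums of T, NK, B and dendritic cell markers overlapped between the groups, for T cells only just, at 3.75 against 3.74 TPM. The 4 pan-leukocyte genes *Ptprc*, *Laptm5*, *Coro1a* and *Cd52* summed to 13.4, 7.33 and 6.32 TPM in control replicates 1, 2 and 3 and to 23.1, 31.2 and 22.9 TPM in Prdm16SMKO replicates 1, 2 and 3. In all 4 the groups did not overlap and the unadjusted limma p was under 0.05, but 0 were called, with a median log2 fold change of 1.31. Of all tested genes, 7.02% were higher with no overlap between the groups and 4.88% were higher with an unadjusted limma p under 0.05. *Ptprc*, the gene of the leukocyte antigen CD45, was at 1.47, 0.630 and 0.600 TPM in control and at 1.51, 3.93 and 2 TPM in Prdm16SMKO libraries. The 8 macrophage markers were all above 0 in fold change, from 0.30 for *Mrc1* to 0.80 for *Lyz2*, with a median of 0.76. Of them 5 had an unadjusted limma p under 0.05 and 0 were called. Their sum ran from 71.1 to 112 TPM in control and from 113 to 204 TPM in Prdm16SMKO libraries. Markers of lymphoid and dendritic cells were low. The sum of 7 T cell markers ran from 0.670 to 3.75 TPM in control and from 3.74 to 6.13 TPM in Prdm16SMKO libraries, of 5 NK cell markers from 0.190 to 0.650 and from 0.390 to 2.44 TPM, of 5 B cell markers from 0.750 to 3.54 and from 1.63 to 4.33 TPM, and of 6 dendritic cell markers from 6.75 to 9.94 and from 9.33 to 12.3 TPM. Of these lists 2, 1, 3 and 3 genes passed the expression minimum, with median log2 fold changes of 0.98, 0.80, 0.67 and 0.34. Of the genes that passed, 0 were called, and none of the listed markers was at 0 in every library. The 5 endothelial markers, all above 0 in fold change and 1 with an unadjusted limma p under 0.05, summed to between 141 and 196 TPM in control and between 182 and 370 TPM in Prdm16SMKO libraries, and the 5 fibroblast markers to between 650 and 850 and between 650 and 1238 TPM. The part of these cells in the values of the immunoproteasome and loading genes was not tested. Control replicate 1 had the highest pan-leukocyte sum of the controls. Among the controls *Psmb9*, *Nlrc5* and, narrowly, *Psmb8* (14.4 against 13.9 TPM in replicate 2) were also highest in it, whereas *Psmb10* was lowest in it. *Psme1*, *Psme2*, *Tap1*, *Tap2*, *Tapbp* and *Erap1* were highest in control replicate 2. A relation between these values was not tested.

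**Figure D5:**
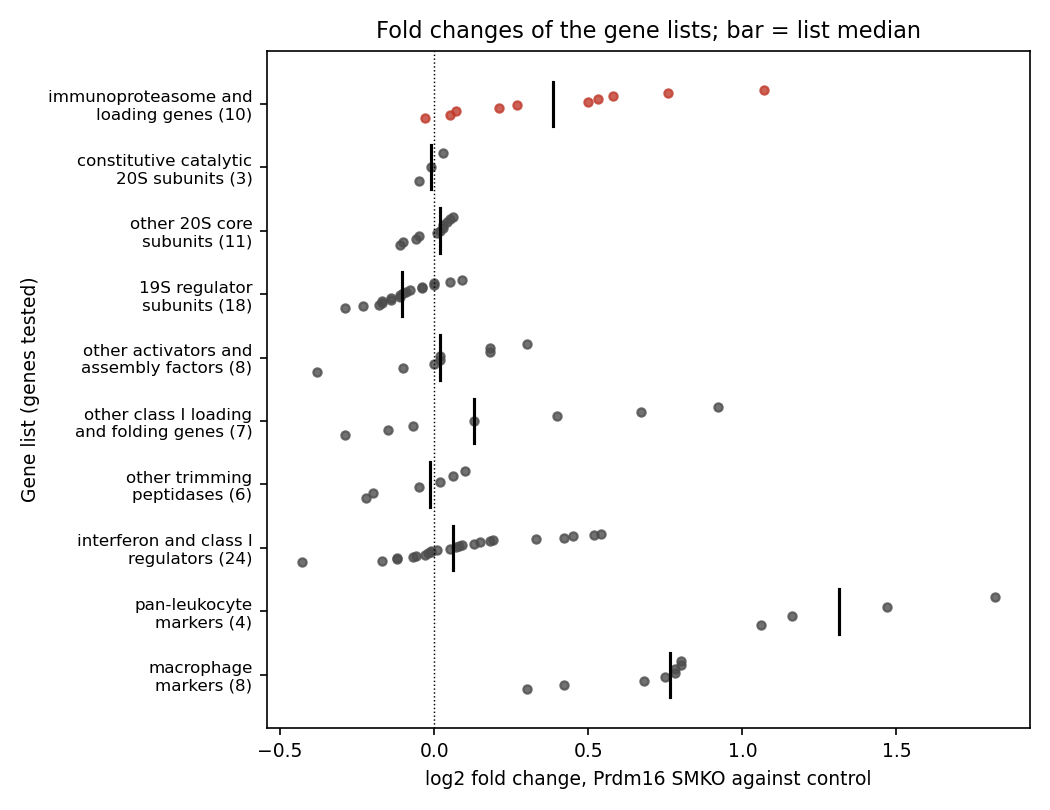
Log2 fold change between Prdm16SMKO and control mice of every tested gene (points) in the immunoproteasome and loading genes (red) and 9 other lists (grey), with the number of genes tested in brackets and the list median as a bar. The median is 0.39 for the immunoproteasome and loading genes, −0.01 for the constitutive catalytic subunits, 0.02 for the other 20S core subunits and 1.31 for the pan-leukocyte markers.

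Genes overlapping the members on the genome could share reads with them where reads are counted without strand, and the strandedness of the counting is not given in the sources used here. *Psmb8* and *Tap2* overlap the antisense gene *Gm20496*, listed at 0 in all libraries, and *Psmb10* overlaps the antisense gene *Gm16156*, at or under 1.92 TPM. *Psmb9* and *Tap1* overlap each other by 212 bp on opposite strands in GENCODE M21, so reads from that stretch cannot be told apart without strand. There *Psmb9* reaches to 34187764, past the start of *Tap1* at 34187553, unlike the RefSeq starts used for the promoter windows. *Tapbp* overlaps *Zbtb22* on the same strand, at 11.7 to 20.5 TPM, and *Erap1* overlaps *Cast* by 834 bp on the opposite strand, at 62.8 to 83.6 TPM.

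The genes whose profile over the 6 libraries was most like the mean of the 10 were *Mamdc2* (Pearson r = 0.997), *Bmp3* (0.996), *Cdk6* (0.995), *Ciart* (0.995) and *Chrdl1* (0.988), out of 9660 other genes that averaged 5 TPM or more. These r values are a description over 6 libraries that include both groups. The members themselves followed their mean unequally. The r of a member with the mean of the other members ran from 0.128 for *Erap1* and 0.251 for *Nlrc5* to 0.973 for *Tap1*. *Chrdl1*, which encodes a secreted BMP antagonist, was at 25.0, 26.9 and 17.8 TPM in control and at 50.7, 57.5 and 44.7 TPM in Prdm16SMKO libraries (limma adjusted p = 0.0620). None of the 5 was called in the main limma fit. Over the 18 alternatives *Chrdl1* was called in 6, *Bmp3* in 4, *Mamdc2* in 2, *Ciart* in 1 and *Cdk6* in 0. The mean profile of the 10 was below 0 in every control and above 0 in every Prdm16SMKO library. Genes picked by likeness to it therefore differ between the groups by selection, so these p-values and calls are no separate evidence.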

How the data were processed

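Abdominal aorta RNA with an integrity number above the submitters' limit was sequenced after poly(A) selection with the NEBNext Ultra RNA kit, as paired 151 bp reads at an average of 40 M pairs per sample. The submitters' processing notes name bcl2fastq, cutadapt 2.3, FastQC 0.11.8, STAR 2.7.8a, RSEM 1.3.3, MultiQC 1.7 and GRCm38, without their settings. The authors deposited TPM values for 55426 genes, of which 28867 were at 0 in all 6 libraries. TPM keeps no record of reads, so the depth behind a value is unknown and no counting interval is given. Identical pairs of libraries numbered 0.

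From these values, log2(TPM + 0.5) was compared between 3 Prdm16SMKO and 3 control libraries for genes averaging 0.5 TPM or more by limma 3.58.1 in R 4.3.3, with variances trended on expression, two-sided p-values, Benjamini-Hochberg adjustment over all 15775 genes and no covariates. Ratios were compared by exact permutation over 20 assignments. Each library is 1 mouse, so the spread includes differences between mice. The members and lists were chosen with earlier results of these data known. By rule the text names the 10 members, *Psmb5*, *Psmb6*, *Psmb7*, *Prdm16*, every called gene and the highest and lowest gene of each list, any list of 6 genes or fewer, and the 5 genes most like the members. The peptidase *Nrdc* was not matched by symbol. A gene that the rule would name is not reported here. Positions and coding sequences are from GENCODE M21, promoter windows from RefSeq on GRCm38.p6. Alternatives were pseudocounts of 0.1 and 1, no minimum or a mean of 2 TPM, size factors, quantile normalization, rescaling without mitochondrial or also 45S transcripts, no trend, robust variances, array weights, a replicate block and each library left out. Python 3.11.15, numpy 2.4.6, pandas 2.3.3, Biopython 1.88 and matplotlib 3.10.9 were used.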

Additional observations from a re-analysis of the deposited data

How the results depend on the processing

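*Psmb8* was the only member called in the main limma fit, the one given in the sections above. The number of members called was 0 with no expression minimum, with no trend and with a replicate block. It was 2 with array weights (*Psmb8* and *Psmb10*), and between 0 and 1 with a library left out. Over all genes, the main limma fit called 56, of which 51.8% were higher in Prdm16SMKO mice. The study itself reported far more genes at an adjusted p under 0.05, by a test that its text does not name. The number called over all genes was 10 with no expression minimum, 153 with size factors (39.2% higher) and 129 with quantile normalization (35.7% higher). It was 123 without mitochondrial and 45S transcripts, 33 with no trend, 112 with robust variances and 494 with array weights. It was 77 (40.3% higher) when genes had to average 2 TPM, and with a library left out it ran from 5 to 61. The members' median, 0.39, ran from 0.26 to 0.39 with a library left out. The log2 fold change of *Psmb7* turned to 0.01 with quantile normalization, 0.03 without mitochondrial transcripts and 7.4e-04 without mitochondrial and 45S transcripts, and that of *Erap1* to 0.01 without mitochondrial transcripts. With a library left out, it ran from −0.22 to 0.15 for *Erap1*, −0.09 to 0.19 for *Psme2*, −0.02 to 0.15 for *Tapbp*, −0.08 to 0.14 for *Psmb5*, −0.14 to 0.03 for *Psmb6*, −0.11 to 0.08 for *Psmb7*, −0.20 to 0.01 for *Psma7*, −0.03 to 0.19 for *Psmb1*, −0.01 to 0.22 for *Psmd12* and −0.67 to 0.02 for *Psmg4*. The cause of these moves was not tested. The 3 subunit ratios kept their direction in all 9 alternatives each.

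Replicate numbers did not pair the samples: the deviations of same-numbered libraries correlated at −0.131, −0.11 and 0.0188, and no control library correlated best with its own number. The replicate block took the calls over all genes to 4 and the adjusted p of *Psmb8* to 0.176 (limma), and the exact sign-flip permutation p of each ratio to 0.250, the smallest that 3 pairs allow. The depth of each library is unknown, so what it limits could not be computed.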
